A study of Zea mays subsp. mays x Zea mays subsp. mexicana with 20 samples.

Results

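Distal chromosome 5 held 1295 of the 44629 small RNA clusters that gathered at least 15 reads over 6 maize pollen libraries. Clusters are genomic stretches on which small RNA reads pile up, and the set was chosen by position and depth alone, as every such cluster that started below 50 Mb on chromosome 5. The rule uses no difference between genotypes. They took 1295 of the 2353 clusters listed on that stretch, since 290 were without reads in all 6 libraries and 768 had between 1 and 14. At the threshold itself, 203 members had 15 to 19 reads, and 223 clusters just outside it had 10 to 14. The other 3482 clusters of chromosome 5 with at least 15 reads served as the background. The stretch below 50 Mb is called the arm here for short, but it is only a part of the short arm. The study places a locus of the short arm beyond 50 Mb, on an assembly not shown to be that of the table. Part of the short arm thus lies in the background.

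The study examined Teosinte Pollen Drive, a bias in the inheritance of segments from the wild relative teosinte *mexicana* through maize pollen. Small RNA was sequenced from pollen of 3 genotypes with 2 libraries each. The study calls the dcl2-mu1 and dcl2T libraries biological replicates. A general statement of the study gives 2 or more biological replicates to every experiment apart from genome assembly. The Dcl2 libraries are not named there and their labels give replicate numbers only, so p-values with Dcl2 may measure a spread that is partly technical. Plants labelled dcl2-mu1 were homozygous for a form of *Dcl2* with a *Mu* transposon in the leader of the gene, in a line repeatedly crossed back to the inbred W22. The dcl2T plants were homozygous for the *mexicana* allele of *Dcl2*, isolated by the study as recombinants through the female parent, and the study treats this allele as partly functional. The Dcl2 plants carried the functional maize allele. The other 14 samples of the series, fertile, drive and sterile pollen and leaf, were not analysed here. The study places *Dcl2* on the short arm of chromosome 5, so both mutant genotypes were selected at a locus of the short arm. It reports a *mexicana* segment that holds *Dcl2*, and how much of it the dcl2T plants carried is not stated. Around that locus, an allele and the sequence linked to it cannot be told apart in these comparisons.

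Dicer-like proteins cut double-stranded RNA into small interfering RNAs (siRNAs), which guide the silencing of matching transcripts and transposons. DCL2 makes a size class of siRNA that in plants can start the production of further siRNAs from its targets, and long hairpin transcripts are among its known substrates. Distal chromosome arms of maize are rich in genes, and the middle of the chromosomes is rich in transposons. The table pairs no cluster with a gene, and all read lengths were counted together. The genotype was therefore not checked on *Dcl2* itself, the tissue was not checked on marker genes, and *Dcl2* and the *mexicana* segment were not placed among the clusters. The study gives a position for *Dcl2* on an assembly not shown to be that of the table, and it was not carried over. Coordinates are those of the table, whose genome build was not named, and no sequence is shown because no genome of that build was at hand.

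Libraries differed in depth and in how many members they covered. Total counts were 1950081 and 4083990 in dcl2-mu1, 4357765 and 4920576 in dcl2T, and 3966305 and 4392281 in Dcl2, so that 1 read was worth between 0.203 and 0.513 CPM, the count scaled by the total of its library. Members had a median of 38 reads over all 6 libraries, 82.9% of them averaged under 5 CPM, and 316 of them (24.4%) had a read in every library. The sparsest library was dcl2-mu1 replicate 1, in which 62.0% of the members had no read, against 28.1% in dcl2-mu1 replicate 2, 10.7% and 9.42% in the dcl2T libraries and 20.4% and 19.4% in the Dcl2 libraries. That library stood apart on the rest of the chromosome too, where 60.2% of the clusters had no read in it, against 24.9% in dcl2-mu1 replicate 2, 11.3% and 9.56% in the dcl2T libraries and 20.6% in each Dcl2 library.

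Within the arm, clusters were densest and most abundant towards the chromosome end. The arm held 25.9 members and 471 CPM per Mb, against 20.2 clusters and 586 CPM per Mb on the rest of chromosome 5, with a median length of 1246 bp against 1196 bp and a median level of 1.60 CPM against 1.62 CPM. Density was 39.4 members per Mb in the most distal 10 Mb and 18.9 per Mb between 20 and 30 Mb. The 538 members that started below 14 Mb were 41.5% of all members and carried 82.6% of the arm's summed CPM. This abundance rested on few clusters, as the 10 most abundant members gave 67.5% of the summed CPM, and 8 of these lay below 14 Mb. Members ranged from 23 to 20080 bp in length and together covered 4.11% of the arm.

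**Figure D1:**
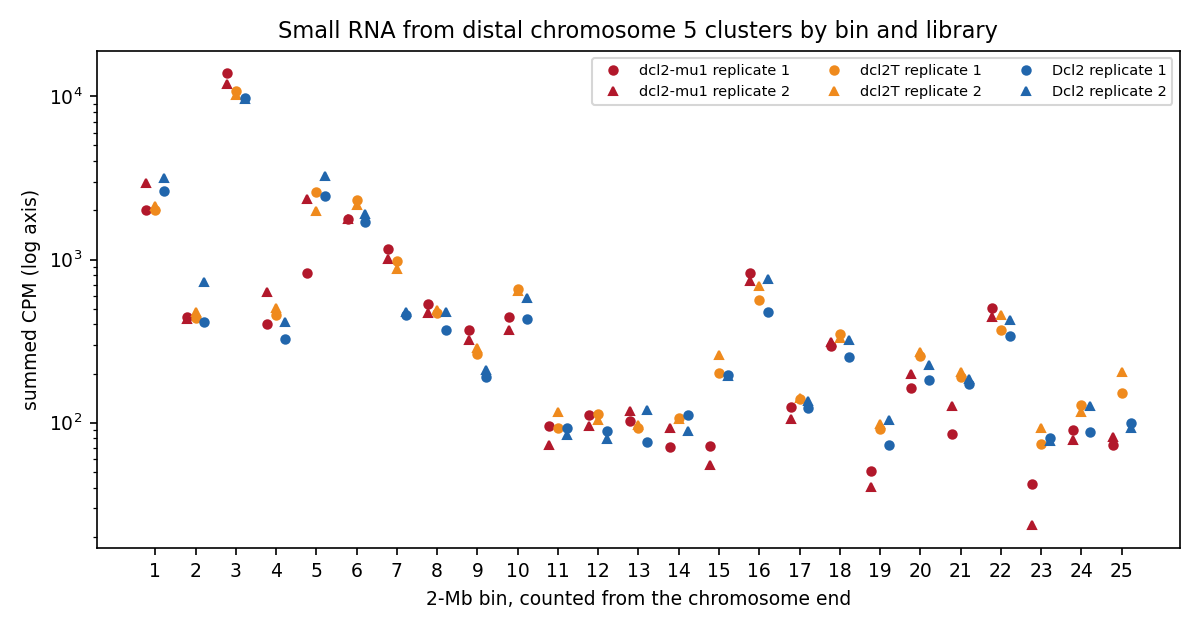
Summed CPM (vertical, log axis) of the distal chromosome 5 members in each of 25 bins of 2 Mb (horizontal, bin 1 at the chromosome end), with 1 symbol per library, circles for replicate 1 and triangles for replicate 2. Bin 3 holds Cluster_42262 and stands highest in all 6 libraries, and the middle bins 11 to 14 lie near 100 CPM. The dcl2-mu1 symbols fall below the others in bins 15, 19, 21, 23 and 25.

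The most abundant member by far was Cluster_42262 at 5217505 to 5225946 (8442 bp). Its counts were 24125 and 42529 in dcl2-mu1, 39366 and 42184 in dcl2T, and 35006 and 37373 in Dcl2, and scaled to depth it averaged 11392 ± 1384 CPM in dcl2-mu1, 8803 ± 326 CPM in dcl2T and 8667 ± 224 CPM in Dcl2 (SD, n = 2 each). It gave 40.8% of the arm's summed CPM, and no comparison called it. Cluster_42573 at 10283672 to 10292909 reached 1991 and 4163 counts in dcl2-mu1, 7912 and 7581 in dcl2T, and 4806 and 5318 in Dcl2. Cluster_42000 at 1537041 to 1541399 had 963 and 892 CPM in dcl2-mu1, 604 and 575 CPM in dcl2T, and 582 and 655 CPM in Dcl2. Cluster_43542 at 31821586 to 31825177, the most abundant member beyond 14 Mb, had 675 and 634 CPM in dcl2-mu1, 422 and 527 CPM in dcl2T, and 375 and 605 CPM in Dcl2. None of these 4 was called in any comparison, and all were read in every library. These CPM use library totals, while the edgeR fit also applied a scaling factor per library. Its log2 fold changes for dcl2-mu1 against Dcl2 were 0.01 for Cluster_42262, -0.61 for Cluster_42573, 0.22 for Cluster_42000 and 0.07 for Cluster_43542. Cluster_42177 at 4082182 to 4089186 was not called either, with 472 and 439 CPM in dcl2-mu1, 624 and 557 CPM in dcl2T, and 340 and 357 CPM in Dcl2.

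The arm's share of all chromosome 5 counts averaged 21.7% ± 1.30 for dcl2-mu1, 18.1% ± 1.14 for dcl2T and 17.3% ± 1.73 for Dcl2 (SD, n = 2 each). Single libraries held 22.6% and 20.8% in dcl2-mu1, 18.9% and 17.3% in dcl2T, and 16.0% and 18.5% in Dcl2, and their Wilson 95% intervals, which cover counting error only, reached at most 0.179 percentage points to either side. Both dcl2-mu1 libraries thus lay above the other 4. The two-sided exact permutation test over libraries gave p = 0.333 for dcl2-mu1 against Dcl2 and against dcl2T, the smallest value that 2 libraries against 2 allow, and p = 0.667 for dcl2T against Dcl2. Of all library counts, members gave 2.45% and 2.48% in dcl2-mu1, 2.39% and 2.31% in dcl2T, and 2.12% and 2.38% in Dcl2. Relative differences between genotypes were smaller by this measure, so the share of chromosome 5 also reflects counts on the rest of the chromosome. In a mixed tissue such as pollen, fewer cells of a type and less RNA per cell cannot be told apart in any of these values.

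Between dcl2T and Dcl2, the arm differed at 1 cluster by the study's thresholds, a log2 fold change of 2 or more in size together with an adjusted p no larger than 0.01. Of the 1295 members, 630 passed the filter on low counts and were tested. Of these, 0 were called lower in dcl2T and 1 was called higher, where 0.00887% and 0.0177% of all 22558 clusters tested were called. With counts this small, nothing particular to the arm is read from them. At an unadjusted p under 0.05 in the edgeR test, 9 of the 630 were lower and 23 higher (1.43% and 3.65%), against 1.92% and 2.14% of all clusters, and DESeq2 called 1 lower and 5 higher. The median log2 fold change was -0.01 over the members and 0.07 over all clusters tested. Scaling by library size alone moved the median over all clusters to 0.25 and that of the members to 0.16.

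The cluster called higher in dcl2T was Cluster_41972 at 1103903 to 1104113, a stretch of 211 bp close to the chromosome end. It had 638 and 708 counts in dcl2T, against 0 in each dcl2-mu1 and Dcl2 library. The level in dcl2T was 145 ± 1.78 CPM (SD, n = 2), at least 404-fold higher than in Dcl2, and the level in dcl2-mu1 was at least 292-fold lower than in dcl2T, taking 3 counts over both libraries of a genotype as the limit that a count of 0 allows. Its adjusted p was 0.00665 for dcl2T against Dcl2 by the edgeR quasi-likelihood test, adjusted after Benjamini and Hochberg. The call did not hold when a single library was left out in 3 of 6 cases, with an adjusted p of 0.0119 without dcl2T replicate 1, 0.24 without Dcl2 replicate 1 and 0.256 without Dcl2 replicate 2 by the same edgeR test. Another cluster of this kind, Cluster_42337 at 6306207 to 6306452, had 120 and 117 counts in dcl2T and 0 in the other 4 libraries and was not called. The abundance of such clusters fell off fast, since the next, Cluster_43608 at 33546684 to 33547294, had 24 and 2 counts in dcl2T and 0 elsewhere. In all, 17 members (1.31%) had reads in both dcl2T libraries and in no other, against 1.17% of all clusters in the table with at least 15 reads. These 17 reached 15 reads through dcl2T alone. Cluster_41972 passed the filter on low counts in the same way, so its call is not independent of how it was selected.

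The members nearest to a call without passing it were taken by rule, as those of smallest unadjusted p among members whose dcl2T and Dcl2 libraries did not overlap, and are given as values only. Cluster_42773 at 13736186 to 13745468 had 666 and 596 CPM in dcl2T, against 217 and 228 CPM in Dcl2, and at 919 and 755 CPM it was highest in dcl2-mu1. Cluster_42282 at 5487260 to 5489802 had 193 and 193 counts in dcl2T and 10 and 27 in Dcl2, with 45 and 75 in dcl2-mu1. The next cluster, Cluster_42283, began 1923 bp beyond its end and had 142 and 269 counts in dcl2-mu1, 334 and 354 in dcl2T, and 20 and 1 in Dcl2. On the lower side, Cluster_43061 at 19359086 to 19367609 had 56 and 68 counts in dcl2T, against 192 and 296 in Dcl2. Cluster_42458 at 8395598 to 8397811 had 86.7 and 65.6 CPM in dcl2T, against 233 and 184 CPM in Dcl2.

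Of the 37 members without any dcl2T read, 16 lay in the most distal 10 Mb and 9 between 19 and 22 Mb. Only 4 members (0.309%) had reads in all 4 dcl2-mu1 and Dcl2 libraries and none in dcl2T, against 0.103% of all clusters in the table, and all 4 started between 19.0 and 21.4 Mb. Cluster_43060 at 19351209 to 19352414 had 14 and 28 counts in dcl2-mu1, 0 and 0 in dcl2T, and 1 and 3 in Dcl2. Cluster_43077 at 19900244 to 19901409 had 13 and 26 counts in dcl2-mu1, 0 and 0 in dcl2T, and 3 and 9 in Dcl2. Cluster_43137 at 21415789 to 21417252 had 32 and 11 counts in dcl2-mu1, 0 and 0 in dcl2T, and 1 and 2 in Dcl2. The fourth, Cluster_43058 at 19040506 to 19042833, had 9 and 6 counts in dcl2-mu1, 0 and 0 in dcl2T, and 10 and 8 in Dcl2. Their levels were low in every genotype, and Cluster_43058 was the only one of the 4 whose dcl2-mu1 and Dcl2 libraries overlapped, at 4.62 and 1.47 CPM in dcl2-mu1 and 2.52 and 1.82 CPM in Dcl2.

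Across the genome, 46 clusters had this pattern and fell into 42 bins of 2 Mb, and the bin from 18 to 20 Mb of chromosome 5 was the single bin with 3, while 2 bins held 2 and 39 held 1. In the window from 19 to 22 Mb, which was chosen after these values were seen and is given with no test, 9 of 39 members (23.1%) had no read in either dcl2T library, against 28 of the 1256 members elsewhere on the arm (2.23%) and 1.98% of all clusters. The corresponding figures were 5 of 39 (12.8%) against 23.0% elsewhere for dcl2-mu1 and 1 of 39 (2.56%) against 5.97% elsewhere for Dcl2. The other 5 of the 9 had reads in only some of the other libraries, as Cluster_43121 at 20983312 to 20983955 with 0 and 16 counts in dcl2-mu1, 0 and 0 in dcl2T, and 19 and 1 in Dcl2. The window still held clusters that dcl2T expressed strongly. Cluster_43072 at 19733599 to 19739780 had 329 and 246 CPM in dcl2-mu1, 604 and 579 CPM in dcl2T, and 345 and 473 CPM in Dcl2. Without that cluster the window summed to 169 and 151 CPM in dcl2-mu1, 112 and 138 CPM in dcl2T, and 158 and 166 CPM in Dcl2.

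**Figure D2:**
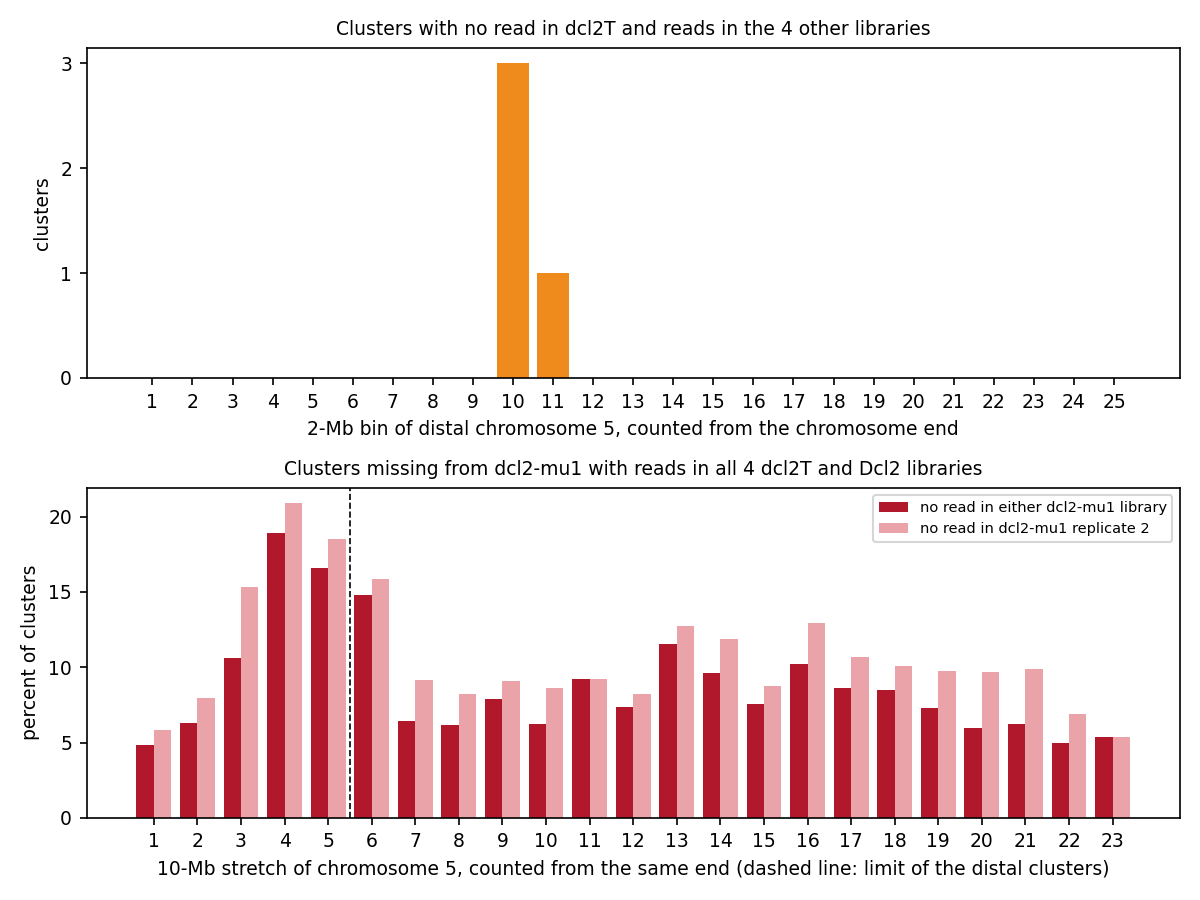
Top, number of distal chromosome 5 clusters with no dcl2T read and reads in the 4 other libraries (vertical) in 25 bins of 2 Mb (horizontal), of which bin 10 holds 3 and bin 11 holds 1. Bottom, percent of chromosome 5 clusters (vertical) in 10-Mb stretches (horizontal) that had reads in all 4 dcl2T and Dcl2 libraries and none in both dcl2-mu1 libraries (dark bars) or in dcl2-mu1 replicate 2 (light bars), which peaks at 18.9% and 20.9% in stretch 4.

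Between dcl2-mu1 and Dcl2, 2 members were called lower in dcl2-mu1 and 0 higher, where 0.186% and 0.235% of all clusters tested were called. At an unadjusted p under 0.05 in the same edgeR test 76 of the 630 were lower and 27 higher (12.1% and 4.29%), against 10.4% and 5.09% of all clusters, and DESeq2 called 15 lower and 9 higher. The median log2 fold change was -0.39 over the members and -0.30 over all clusters. The median of the members moved to -0.05 when library size alone was used for scaling, to -0.17 without dcl2-mu1 replicate 1 and to -1.91 without dcl2-mu1 replicate 2, and that of all clusters moved to 0.02, -0.21 and -1.58 in these settings. With a library left out, the members called lower numbered 1 without dcl2-mu1 replicate 1, 6 without dcl2-mu1 replicate 2 and 0 without either Dcl2 replicate.

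The longer of the 2 was Cluster_43433 at 29265365 to 29280748, a stretch of 15384 bp. It had 12 and 12 counts in dcl2-mu1, 539 and 716 in dcl2T, and 347 and 518 in Dcl2, so that both dcl2-mu1 libraries lay far below the other 4. The log2 fold change was -4.93 (SE 0.43) for dcl2-mu1 against Dcl2, with an adjusted p of 0.00101 by edgeR's quasi-likelihood test. It was not called without Dcl2 replicate 1 or Dcl2 replicate 2, each with an edgeR adjusted p of 0.0287, while the log2 fold change stayed at -5.19 and -4.90. Cluster_43941 at 41998927 to 42004807 had 0 and 1 counts in dcl2-mu1, 116 and 152 in dcl2T, and 106 and 69 in Dcl2. Its log2 fold change was -7.09 (SE 0.91) and its adjusted p 0.00726 by the same edgeR test, and with any 1 of the 6 libraries left out the adjusted p lay between 0.0103 and 0.109.

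Other members had their reads in dcl2T and Dcl2 and few or none in dcl2-mu1 without being called. Cluster_43360 at 27500306 to 27501087 had 0 and 0 counts in dcl2-mu1, 71 and 101 in dcl2T, and 55 and 58 in Dcl2. Cluster_43662 at 35311073 to 35312374 had 0 and 0 counts in dcl2-mu1, 73 and 75 in dcl2T, and 59 and 61 in Dcl2. Its neighbour Cluster_43663 at 35313817 to 35315088 had 0 and 0 counts in dcl2-mu1, 70 and 59 in dcl2T, and 54 and 32 in Dcl2. The 2 were 1442 bp apart, where the median gap between neighbouring members was 14.7 kb. Cluster_44067 at 44626353 to 44633142 had 0 and 3 counts in dcl2-mu1, 96 and 122 in dcl2T, and 105 and 83 in Dcl2. In these 4 clusters each dcl2T library, scaled to depth, lay within or above the range of the Dcl2 libraries.

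In the opposite direction, no member was called, and the 3 nearest to a call were Cluster_42773 and a pair of neighbours near 4.3 Mb. Cluster_42192 at 4334359 to 4335812 had 72 and 202 counts in dcl2-mu1, 65 and 59 in dcl2T, and 5 and 8 in Dcl2. Cluster_42191 at 4331713 to 4333297 had 134 and 231 counts in dcl2-mu1, 71 and 92 in dcl2T, and 2 and 17 in Dcl2. Scaled to depth, both lay highest in dcl2-mu1, between in dcl2T and lowest in Dcl2. The rule that named them asked for dcl2-mu1 and Dcl2 libraries that did not overlap.

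**Figure D3:**
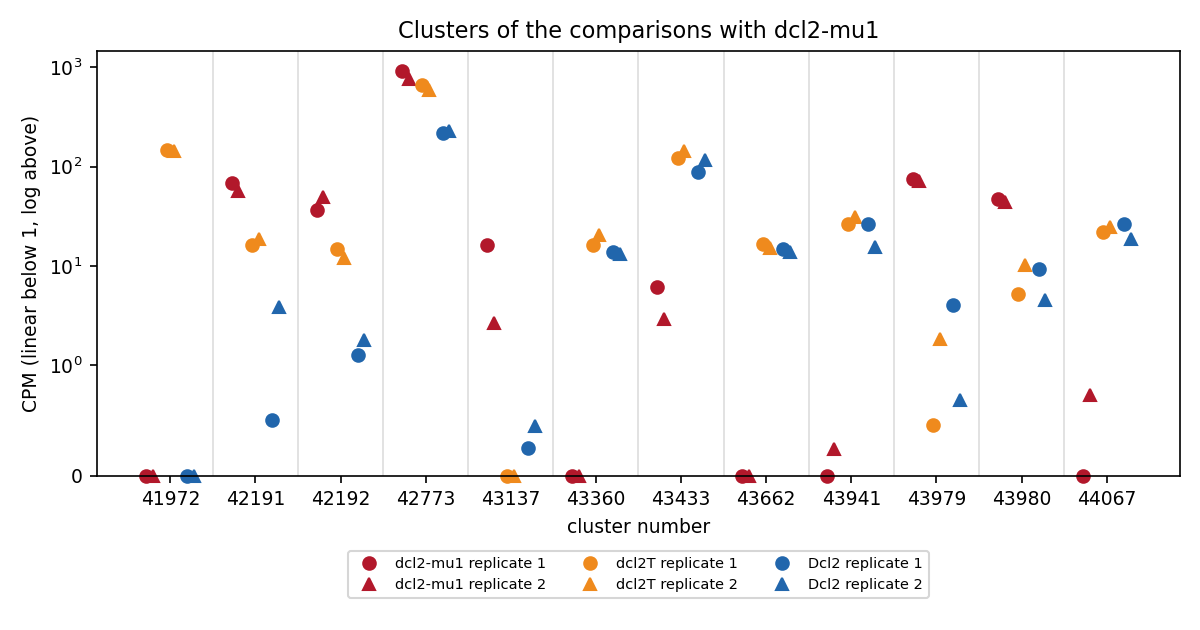
CPM (vertical, linear below 1 and log above) of the 12 clusters that were called, or came nearest to a call, in a comparison with dcl2-mu1 (horizontal), with circles for replicate 1 and triangles for replicate 2 of each genotype. The dcl2-mu1 libraries lie at or near 0 for 43360, 43662, 43941 and 44067 and between 2.94 and 6.15 CPM for 43433, and above both other genotypes for 43979 and 43980.

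Clusters missing from dcl2-mu1 became more frequent with distance from the chromosome end. In all, 131 members (10.1%) had reads in all 4 dcl2T and Dcl2 libraries and none in dcl2-mu1, against 8.74% of all clusters in the table and 7.84% on the rest of chromosome 5. By 10-Mb stretch the share was 4.82%, 6.31%, 10.6%, 18.9% and 16.6% of the members from the chromosome end inwards. It was 14.8% from 50 to 60 Mb and no more than 11.5% in any of the 17 stretches that followed. Because dcl2-mu1 replicate 1 was so sparse, the same count was made with dcl2-mu1 replicate 2 alone, which gave 5.84%, 7.97%, 15.3%, 20.9% and 18.5%. Members with no read in either dcl2-mu1 library, whatever the other libraries held, came to 14.5%, 16.3%, 24.3%, 34.0% and 35.1%. By this looser measure dcl2T did not follow the same course, at 4.06%, 1.99%, 4.76%, 1.46% and 1.46%. Nor did Dcl2, at 6.09%, 5.98%, 5.82%, 5.34% and 5.85%. Over the whole table this measure gave 20.8% for dcl2-mu1, 1.98% for dcl2T and 6.63% for Dcl2. For dcl2-mu1 it gave 19.1% on the rest of chromosome 5, with 29.6% from 50 to 60 Mb and 34.9% from 100 to 110 Mb. It was no more than 25.5% in any other stretch there, so levels like those of the inner arm also occurred outside it. The stretch from 30 to 40 Mb ranked 6 by the share missing from dcl2-mu1 among 212 stretches of 10 Mb with at least 100 clusters, and 5 stretches of chromosome 10 ranked above it. The median level of a member was 1.81, 1.80, 1.43, 1.35 and 1.42 CPM in the 5 stretches of the arm, and its part in these shares was not tested.

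Between dcl2-mu1 and dcl2T, 3 members were called lower in dcl2-mu1 and 0 higher, where 0.199% and 0.164% of all clusters tested were called. At an unadjusted p under 0.05 in the edgeR test 82 of the 630 were lower and 24 higher (13.0% and 3.81%), against 9.94% and 3.37% of all clusters, and DESeq2 called 16 lower and 2 higher. The median log2 fold change was -0.36 over the members and -0.37 over all clusters. The 3 called members were those already named, and this comparison shares the dcl2-mu1 and dcl2T libraries with the other 2. Cluster_41972 had an adjusted p of 0.00134, Cluster_43433 a log2 fold change of -5.17 (SE 0.43) and an adjusted p of 0.000889, and Cluster_43941 a log2 fold change of -7.35 (SE 0.91) and an adjusted p of 0.00746, all by edgeR's quasi-likelihood test. None of the 3 was called without Dcl2 replicate 1 or without Dcl2 replicate 2, where the edgeR adjusted p lay between 0.0103 and 0.0456. In this comparison the Dcl2 libraries enter through the shared estimate of the spread and through the scaling. Cluster_43941 alone was also lost without any other single library, at 0.0136 to 0.0283.

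The clusters nearest to a call on the higher side stood next to each other at 43 Mb. Cluster_43979 at 42990540 to 42993651 had 146 and 295 counts in dcl2-mu1, 2 and 9 in dcl2T, and 16 and 3 in Dcl2. Cluster_43980 at 42994231 to 43003478 had 92 and 182 counts in dcl2-mu1, 23 and 50 in dcl2T, and 37 and 20 in Dcl2. Scaled to depth, the 2 dcl2-mu1 libraries were close to each other, with 74.9 and 72.2 CPM for Cluster_43979 and 47.2 and 44.6 CPM for Cluster_43980. The pair lay in the stretch from 40 to 50 Mb, where 16.6% of the members were missing from dcl2-mu1.

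Counts were next summed over 2-Mb bins, which hold far more reads than single clusters, and tested across 1163 bins of the genome. Between dcl2T and Dcl2, 1.72% of all bins were called lower and 0.774% higher at an edgeR adjusted p of 0.05. On the rest of chromosome 5, 2 of the 87 bins were called lower and 0 higher. Of the 25 bins of the arm, 0 were called in either direction. Without adjustment, at a p under 0.05, 1 bin was lower and 2 were higher in the edgeR test, and DESeq2 called 1 lower and 1 higher. The log2 fold change ran from -0.68 (SE 0.20) in the bin from 0 to 2 Mb to 0.78 (SE 0.16) in the bin from 12 to 14 Mb, with an edgeR adjusted p of 0.197 and 0.0516. The bin from 12 to 14 Mb summed to 975 and 870 CPM in dcl2T, against 456 and 476 CPM in Dcl2, and Cluster_42773 made up 68.5% of it. Leaving out the most abundant cluster of each bin, an alternative chosen after seeing the data, brought its log2 fold change to 0.03. In that setting the bin from 18 to 20 Mb, which holds 3 of the clusters missing from dcl2T, had a log2 fold change of -0.87 (SE 0.19) and an edgeR adjusted p of 0.0582.

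Between dcl2-mu1 and Dcl2, 13 of the 87 bins on the rest of chromosome 5 were called lower in dcl2-mu1 and 5 higher. On the arm, 4 of the 25 bins were called lower and 2 higher, against 9.72% and 8.94% of all bins. The 4 lower bins all lay beyond 28 Mb. The bin from 28 to 30 Mb summed to 72.3 and 55.1 CPM in dcl2-mu1, 202 and 262 CPM in dcl2T, and 195 and 194 CPM in Dcl2, with a log2 fold change of -1.81 (SE 0.20) and an edgeR adjusted p of 0.00119 against Dcl2. Cluster_43433 gave 49.4% of that bin, and without it the log2 fold change was -0.80 with an edgeR adjusted p of 0.0805. The bin from 36 to 38 Mb summed to 50.8 and 40.2 CPM in dcl2-mu1, 91.6 and 98.8 CPM in dcl2T, and 72.6 and 104 CPM in Dcl2, and no single cluster gave more than 13.0% of it. Its log2 fold change was -1.14 (SE 0.23) with an edgeR adjusted p of 0.015, and -1.64 with 0.00328 without its most abundant cluster.

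None of the 4 lower bins kept its call in every setting. That from 36 to 38 Mb was not called without Dcl2 replicate 2, at a log2 fold change of -0.95. The bin from 44 to 46 Mb summed to 42.0 and 23.5 CPM in dcl2-mu1, 74.3 and 93.3 CPM in dcl2T, and 80.7 and 77.4 CPM in Dcl2, with a log2 fold change of -1.49 (SE 0.32) and an edgeR adjusted p of 0.0168. The bin from 40 to 42 Mb summed to 84.6 and 126 CPM in dcl2-mu1, 189 and 205 CPM in dcl2T, and 172 and 184 CPM in Dcl2, with -0.93 (SE 0.21) and 0.0225. Without the most abundant cluster the bin from 44 to 46 Mb had a log2 fold change of -0.98 and an edgeR adjusted p of 0.0742, and that from 40 to 42 Mb had -1.14 and 0.0712. Neither was called without Dcl2 replicate 1 or without Dcl2 replicate 2, where the edgeR adjusted p lay between 0.0694 and 0.127. In all 4 of these bins both dcl2-mu1 libraries lay below every other library. Of the bins called higher, that from 12 to 14 Mb summed to 1152 and 1009 CPM in dcl2-mu1, against 456 and 476 CPM in Dcl2, with a log2 fold change of 1.02 (SE 0.16) and an edgeR adjusted p of 0.0047. Without Cluster_42773 its log2 fold change was -0.15, so that single cluster decided the direction. The bin from 16 to 18 Mb summed to 372 and 323 CPM in dcl2-mu1, against 191 and 209 CPM in Dcl2, with 0.61 (SE 0.14) and an edgeR adjusted p of 0.0225, and with 0.80 without its most abundant cluster. Without Dcl2 replicate 2, the count of bins called lower was 1 of 25 and that called higher also 1, and without Dcl2 replicate 1 or dcl2T replicate 1 there was likewise 1 bin called higher.

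Between dcl2-mu1 and dcl2T, 8 of the 87 bins on the rest of chromosome 5 were called lower in dcl2-mu1 and 8 higher. On the arm, 6 of the 25 bins were called lower and 0 higher, against 6.79% and 7.39% of all bins. At an unadjusted p under 0.05 in the edgeR test, 8 bins were lower and 1 was higher, and DESeq2 called 0 higher. The bins from 28 to 30, 36 to 38, 40 to 42 and 44 to 46 Mb were again among them, with log2 fold changes of -1.85, -1.06, -0.87 and -1.36. Without the most abundant cluster of each, the bins from 28 to 30, 40 to 42 and 44 to 46 Mb were not called, with an edgeR adjusted p of 0.164, 0.0906 and 0.13. The fifth, from 48 to 50 Mb, summed to 72.8 and 81.3 CPM in dcl2-mu1, 152 and 204 CPM in dcl2T, and 100 and 92.4 CPM in Dcl2, with a log2 fold change of -1.18 (SE 0.20) and an edgeR adjusted p of 0.00932. The sixth, from 18 to 20 Mb, had a log2 fold change of -0.66 (SE 0.16) and an edgeR adjusted p of 0.0352. Its direction rested on Cluster_43072, which gave 82.2% of the bin. Without that cluster the log2 fold change was 1.05 with an edgeR adjusted p of 0.0127, the dcl2-mu1 libraries then being higher. Without dcl2T replicate 1 the called bins numbered 2, without dcl2T replicate 2 there was 1, and without Dcl2 replicate 2 there were 3.

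**Figure D4:**
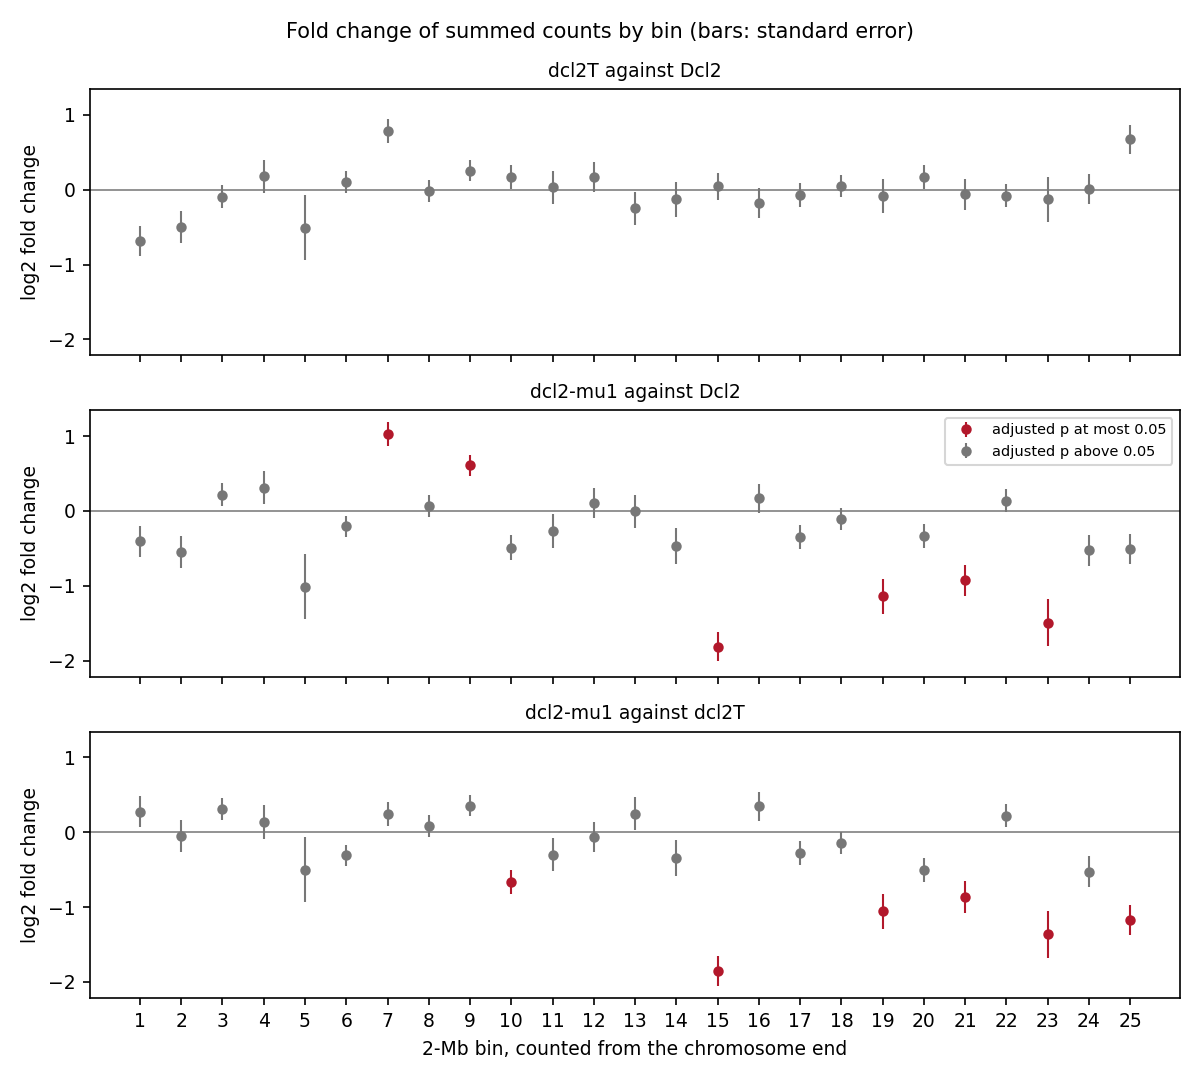
Log2 fold change (vertical) of summed counts in the 25 bins of 2 Mb (horizontal, bin 1 at the chromosome end) for dcl2T against Dcl2 (top), dcl2-mu1 against Dcl2 (middle) and dcl2-mu1 against dcl2T (bottom), with standard errors as bars and red points for an adjusted p of at most 0.05. No bin is red in the top panel, and bins 15, 19, 21 and 23 are red and below 0 in both lower panels.

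Some abundant members were present at full level in some libraries and nearly absent from others, including libraries of the same genotype. Among members with a mean of at least 20 CPM, 10 of 70 (14.3%) had a lowest library under 1/20 of their median, against 13 of 217 (5.99%) on the rest of chromosome 5 and 123 of 2157 (5.70%) in the whole table. This criterion was set after the values were seen and was given no test. It does not ask for a difference within a genotype, and the 10 include Cluster_43433, which was low in both dcl2-mu1 libraries. Cluster_42462 at 8408133 to 8411378, the second most abundant member, had 8 and 5463 counts in dcl2-mu1, 8259 and 6363 in dcl2T, and 5961 and 10024 in Dcl2. A library this low was dcl2-mu1 replicate 1, the sparsest library, in 6 of the 10. Other libraries were affected as well, since Cluster_42283 at 5491726 to 5492275 had 1 count in Dcl2 replicate 2, against 142 to 354 in the dcl2-mu1 and dcl2T libraries. Cluster_42302 at 5707469 to 5709202 and Cluster_42351 at 6686904 to 6687068 had 0 counts in dcl2-mu1 replicate 1 and between 71 and 296 in each of the other 5 libraries.

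The densest group of such clusters lay near the chromosome end, from Cluster_41968 to Cluster_41975, where 4 of 8 neighbouring members switched in this way. This group too was chosen after its values were seen. Cluster_41970 at 1100743 to 1101764, among the 8 most abundant members of the arm, had 0 and 2988 counts in dcl2-mu1, 6 and 11 in dcl2T, and 4526 and 4207 in Dcl2. Its log2 fold change for dcl2T against Dcl2 was -9.33 (SE 2.36) with an edgeR adjusted p of 0.456, and it was called lower in dcl2T when either dcl2-mu1 library was left out, with an adjusted p of 0.000624 without dcl2-mu1 replicate 1 and 0.000563 without dcl2-mu1 replicate 2. Cluster_41971, at 1102755 to 1103019, had 0 and 1 counts in dcl2-mu1, 0 and 748 in dcl2T, and 1325 and 1087 in Dcl2. Cluster_41972, with reads in dcl2T alone, began 883 bp beyond its end. Thus 3 clusters within 3371 bp were each present in a different set of libraries.

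On both sides of these 3, other patterns held. Cluster_41969 at 1075414 to 1076128 had 0 and 989 counts in dcl2-mu1, 1399 and 1105 in dcl2T, and 439 and 1350 in Dcl2. Cluster_41975 at 1135546 to 1135850 had 839 and 2060 counts in dcl2-mu1, 1917 and 2420 in dcl2T, and 3 and 2360 in Dcl2. Between them, Cluster_41973 at 1130228 to 1132084 and Cluster_41974 at 1132937 to 1134782 were steady. Cluster_41973 had 44.6 and 44.8 CPM in dcl2-mu1, 65.2 and 79.3 CPM in dcl2T, and 69.3 and 51.5 CPM in Dcl2. Cluster_41974 had 45.6 and 46.0 CPM in dcl2-mu1, 78.0 and 74.0 CPM in dcl2T, and 81.2 and 57.4 CPM in Dcl2. The eighth, Cluster_41968 at 1068750 to 1071031, had no more than 23 counts in any library. In Cluster_41969, Cluster_41970, Cluster_41971 and Cluster_41975 the 2 libraries of a genotype thus lay near 0 and above 100 CPM, so that the mean of that genotype describes neither of its libraries.

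**Figure D5:**
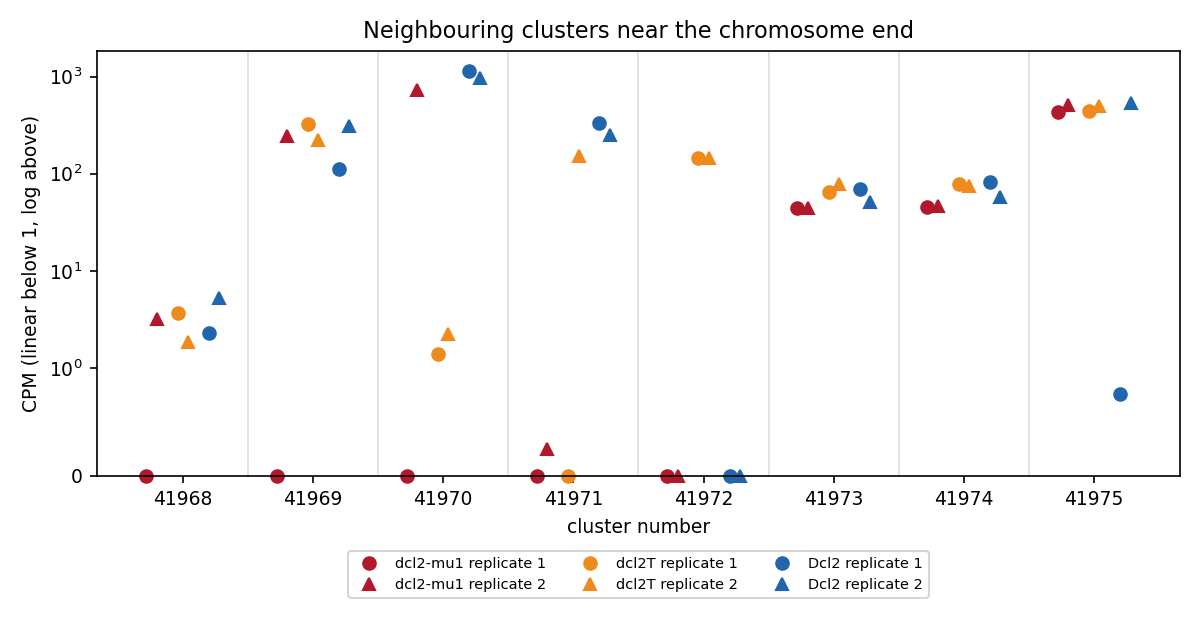
CPM (vertical, linear below 1 and log above) of the 8 neighbouring clusters (horizontal, in chromosome order), with circles for replicate 1 and triangles for replicate 2 of each genotype. Clusters 41969, 41970, 41971 and 41975 lie near 0 in some libraries and above 100 CPM in others, 41972 is above 0 in dcl2T only, and 41973 and 41974 stay between 44.6 and 81.2 CPM in all 6 libraries.

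The remaining presence patterns were rare. Members with reads in both dcl2-mu1 libraries and in no other numbered 2 (0.154%), against 0.0919% of all clusters, and these were Cluster_42117 at 3173721 to 3175646 with 10 and 7 counts and Cluster_42394 at 7468923 to 7470890 with 10 and 6. Members with reads in both Dcl2 libraries and in no other numbered 5 (0.386%), against 0.343% of all clusters. The most abundant of these were Cluster_42008 at 1593530 to 1594115 with 2 and 25 counts, Cluster_43101 at 20279781 to 20281024 with 18 and 6, and Cluster_43906 at 40923761 to 40923935 with 14 and 9. Such counts are close to the limit of detection, which for 0 counts over both libraries lay at 0.497 CPM in dcl2-mu1, 0.323 CPM in dcl2T and 0.359 CPM in Dcl2. Members with no read in Dcl2 and reads in the other 4 libraries numbered 11 (0.849%), against 0.809% of all clusters. Cluster_42110 at 2985833 to 2986683 had 40 and 20 counts in dcl2-mu1 and 1 and 7 in dcl2T. Cluster_42664 at 11874670 to 11875946 had 25 and 34 counts in dcl2-mu1 and 4 and 3 in dcl2T. Cluster_44173 at 47973582 to 47974917 had 5 and 33 counts in dcl2-mu1 and 3 and 6 in dcl2T. Scaled to depth, in these 3 clusters the dcl2-mu1 level was above the dcl2T level.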

How the data were processed

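The labels gave the groups and replicate numbers. The authors trimmed adapters with cutadapt, removed the random bases at both read ends, filtered structural RNAs with bowtie2, and aligned reads and defined clusters with ShortStack. Values as deposited are raw read counts per cluster in each library, not normalized. How reads that match several places were assigned, and the genome build, are not given in the sources used here. A further deposited column, the count over all libraries, equalled the sum of the 6 libraries in every row and was used for that check alone.

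Counts of all 85421 clusters were tested in R 4.3.3 with edgeR 4.0.16 (filterByExpr with min.count 10 and min.total.count 15, TMM factors, glmQLFit and glmQLFTest, 1 coefficient per genotype over all 6 libraries, no block), with Benjamini-Hochberg adjustment over the 22558 clusters kept. Counts of clusters with at least 15 reads were summed into 2-Mb bins and tested likewise over 1163 bins. CPM used the total count of a library. Standard errors are approximate, being each fold change over the root of its F value. A count of 0 in a genotype was set to 3 counts over its 2 libraries for ratios. The code was also run on simulated counts with known changes. For clusters these changes were set only in abundant ones and with a smaller spread between libraries than here. Performance on clusters as low as most members was therefore not tested. The members, the lists and the windows were chosen with earlier results of these data known. Named clusters were, by rule, those called, the 8 most abundant, up to 3 per genotype present or missing in it alone, and, where fewer than 3 were called in a direction, the 3 of smallest unadjusted p whose libraries did not overlap, as well as every called bin and the extreme bins. Alternatives were other scalings (RLE, upper quartile, library size alone), DESeq2 1.42.0, other filters, thresholds, bin sizes and limits of the arm, only the 2 genotypes compared, a replicate block, and each library left out.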

Additional observations from a re-analysis of the deposited data

How the results depend on the processing

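The counts of single clusters called moved with the settings, while directions mostly held. For dcl2T against Dcl2 the members called lower were 0 in the main edgeR fit, 1 with DESeq2, 2 with no filter, 1 with only the 2 genotypes and 0 to 1 with a library left out, and those called higher were 1, with 5 by DESeq2, 3 with no filter, 0 with a filter of 5 CPM in 2 libraries, 0 with only the 2 genotypes and 0 to 1 with a library left out. For dcl2-mu1 against Dcl2 the lower calls were 2, with 15 by DESeq2, 14 with no filter, 1 with the 5 CPM filter, 0 with only the 2 genotypes, 9 at an adjusted p of 0.05 and 0 to 6 with a library left out, and the higher calls were 0, with 1 under library size alone, 9 by DESeq2, 4 with no filter and 3 at an adjusted p of 0.05. For dcl2-mu1 against dcl2T the lower calls were 3, with 16 by DESeq2, 14 with no filter, 0 with only the 2 genotypes, 10 at an adjusted p of 0.05 and 0 to 4 with a library left out, and the higher calls were 0, with 2 by DESeq2, 3 with no filter, 1 at an adjusted p of 0.05 and 0 to 1 with a library left out. The cause of these shifts was not tested.

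Bins of the arm called lower and higher in dcl2T against Dcl2 were 0 and 0, with 1 and 1 by DESeq2, 1 higher under library size alone, with only the 2 genotypes and in 1-Mb bins, and 0 to 1 in each direction with a library left out. In dcl2-mu1 against Dcl2 they were 4 and 2, with 2 and 0 in 5-Mb bins, 4 higher in 1-Mb bins, 2 and 1 without the most abundant cluster of each bin, and 1 to 6 lower and 1 to 3 higher with a library left out. In dcl2-mu1 against dcl2T they were 6 and 0, with 2 lower in 5-Mb bins, 2 higher in 1-Mb bins, 3 and 1 without the most abundant cluster of each bin, and 1 to 7 lower with a library left out. The 2 reversed values were both in bins without their most abundant cluster, at -0.15 for the bin from 12 to 14 Mb in dcl2-mu1 against Dcl2 and 1.05 for the bin from 18 to 20 Mb in dcl2-mu1 against dcl2T.

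The difference between replicates 1 and 2 correlated across clusters at -0.01, 0.01 and -0.01 between genotypes. Counts of single clusters varied widely, so such low values cannot exclude that replicate numbers paired the samples. With a replicate block the members called lower and higher were 0 and 1 for dcl2T against Dcl2, 6 and 2 for dcl2-mu1 against Dcl2, and 6 and 1 for dcl2-mu1 against dcl2T, and the bins 0 and 0, 4 and 2, and 2 and 0.

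Without the 10 most abundant members the share of chromosome 5 counts came to 7.84% for dcl2-mu1, 7.06% for dcl2T and 6.38% for Dcl2. The percent of members without a read exceeded that of the rest of chromosome 5 by 2.52 points in dcl2-mu1, 1.52 with at least 1 read, -0.54 for starts below 40 Mb and 3.58 below 60 Mb. It differed by -0.38 points in dcl2T, with -1.37 for at least 1 read and 0.0198 below 40 Mb, and by -0.74 in Dcl2, with 0.69 for at least 50 reads. With at least 50 reads, members missing from 1 genotype only were 27 for dcl2-mu1, 1 for dcl2T and 2 for Dcl2, and those read in 1 genotype only were 0, 2 and 0. With at most 1 read taken as absent, 4 members were read in dcl2-mu1 only. Over the named clusters and bins, 382 alternative values kept their direction and side of the threshold, 69 were no longer past it, 35 passed it newly and 2 reversed.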
